A study of Mus musculus with 2 samples.

Results

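Among the cells of a library sorted as short-term haematopoietic stem cells, 154 carried RNA of natural killer (NK) or innate lymphoid cells and are called NK/ILC-type cells here. They were chosen as cells with at least 1000 detected genes and under 10% of transcripts from mitochondrial genes in which at least 4 of 8 genes (Skap1, Ms4a4b, Klrk1, Klrd1, Ncr1, Il7r, Cd226 and Ikzf3) had 1 or more unique molecular identifiers (UMIs, each tagging 1 captured RNA molecule). They made 2.32% of the 6648 cells of that library that passed the filters (95% exact binomial interval 1.97 to 2.71%), out of 9370 such cells in the series. The data are droplet libraries of the 3' ends of RNA from bone marrow of wild-type C57Bl6 mice that were 8 weeks old (an age the series' title gives). LSK cells carry Sca-1 and Kit on their surface and lack the markers of mature lineages. By the series' design text, short-term stem cells (ST-HSC) were the LSK cells without CD34 and with CD150 and CD48. Long-term stem cells (LT-HSC), a separate library, were those without CD34, CD48 and Flk2 and with CD150. There was 1 library per group, the labels do not say how many mice it came from, and no treatment or genetic change is named.

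NK cells and innate lymphoid cells (ILCs) are lymphocytes without rearranged antigen receptors. NK cells kill infected or transformed cells through perforin and granzymes and read target cells through activating and inhibitory receptors, many of them encoded side by side in 1 gene complex. ILC1s, ILC2s and ILC3s mainly secrete cytokines, and all of these cells develop in bone marrow from lymphoid progenitors, a step that uses interleukin-7, Id2, Tcf7 and Gata3.

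The 154 cells were set against the other 6494 cells of the same library. NK/ILC-type cells held a median of 6914 UMIs and 2831 genes, against 13580 UMIs and 4283 genes in the other cells, and 3.42% against 3.48% mitochondrial UMIs. Levels are UMIs summed over a set of cells, per 1000000 UMIs of that set (CPM), from 1539952 UMIs of NK/ILC-type cells and 110243228 of the other cells. A ratio is NK/ILC-type over other cells, with the exact conditional binomial 95% interval of both sums, and a gene is called higher at 2 or more and lower at 0.5 or less, by size. Cells of 1 library are not replicates, so no p-value is given and every interval covers counting error only. To compare shares of cells at equal depth, UMIs were drawn down to 3000 in each cell, and the 150 NK/ILC-type and 6419 other cells that deep were kept.

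The 8 genes that chose the cells mark NK and other lymphoid cells, and their values are a description of the rule. Most cells had either none of them or nearly all. Of the 154 cells, 69 had all 8 genes, 39 had 7, 27 had 6, 10 had 5 and 9 had 4. Of the other cells, 42 had 3, 187 had 2, 721 had 1 and 5544 had 0. The 9 cells just inside the limit held 23.2 CPM of Il2rb and 154 CPM of Dscam, and the 42 cells just outside 4.47 and 68.6 CPM, while cells with 5 genes held 464 and 1091 CPM. Of the 7 genes given as markers of these cells all 7 were higher, Dscam and 6 of the rule genes, summing to 4775 CPM in NK/ILC-type cells and 32.8 CPM in the other cells. The 6 rule genes are higher by construction. No LT-HSC cell met the rule, 0 of 2722, which allows a share of up to 0.110% (3 counts of the total; the exact 95% limit is 0.135%), and the most rule genes in 1 LT-HSC cell was 3, in 4 cells.

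**Figure D1:**
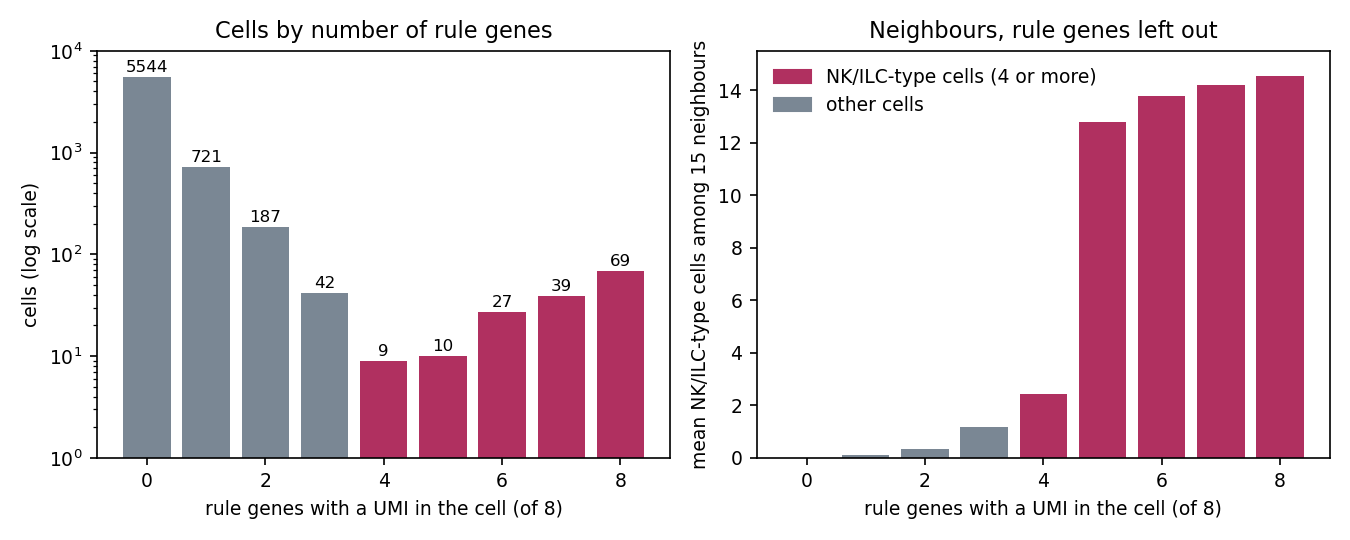
Left, ST-HSC cells by the number of the 8 rule genes with a UMI (x axis) on a log axis of cells; right, the mean number of NK/ILC-type cells among each cell's 15 nearest cells, from components that leave the rule genes out. The counts dip to 9 cells at 4 genes, and the neighbour mean goes from 2.44 of 15 at 4 genes to 12.8 at 5 genes.

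The cells lay together also without the genes that chose them. In 30 principal components of 2000 variable genes with the rule genes left out, 90.0% of the 15 nearest cells of an NK/ILC-type cell were NK/ILC-type cells, against 0.205% of those of the other cells. With the NK, ILC and T cell lists left out as well the shares were 88.9% and 0.198%. The lists of cytokine receptor, homing and Gimap genes were not among those left out, so RNA that marks lymphocytes remained. Within the rule, the gene left out could be read in cells chosen by 4 of the other 7: it had a UMI in 80.7% (Il7r) to 97.3% (Klrk1) of them. In the cells not so chosen the share was 0.123% (Ncr1) to 4.89% (Klrk1). Every cell chosen this way was already an NK/ILC-type cell, so these shares describe the rule. Dscam is an adhesion gene known from neurons that is not among the 8, but was given as a marker with earlier results of these data known. It had 1323 CPM (1266 to 1382) in NK/ILC-type cells and 13.3 CPM in the other cells. It was found in 136 of the 154 cells and lies on chromosome 16 from 96590840 to 97170752 (mm10), a long gene in which reads from introns may be counted.

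Of the 154, 140 had 8 or more of their own kind among their 15 neighbours and 14 did not, a limit set after seeing the data. The 14 cells held a median of 13630 UMIs, against 6664 in the 140, and 20.1% of all NK/ILC-type UMIs. They had 45.2 CPM of Il2rb and 345 CPM of Mecom, a stem cell transcription factor, against 441 and 154 CPM in the 140. They also held 262 CPM of Hba-a1, a haemoglobin gene, against 0.813 CPM in the 140, and the 5 markers of erythroid cells summed to 1459 CPM and 12.2 CPM. These values rest on few cells: Hba-a1 had a UMI in 3 of the 154, and 3 of the 154 had 2 or more of the 5 markers. Droplets that hold more than 1 cell were sought with Scrublet, which marked 0 of 6648 cells and is taken as failed. By its score alone, above the limit set by the expected rate of 6.07%, 21 of the 154 (13.6%) and 5.59% of the other cells stood out, and 8 of the 14 were among the 21. What doublets add to any level below was not tested, and values without these cells are given where a call on a named gene is lost.

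**Figure D2:**
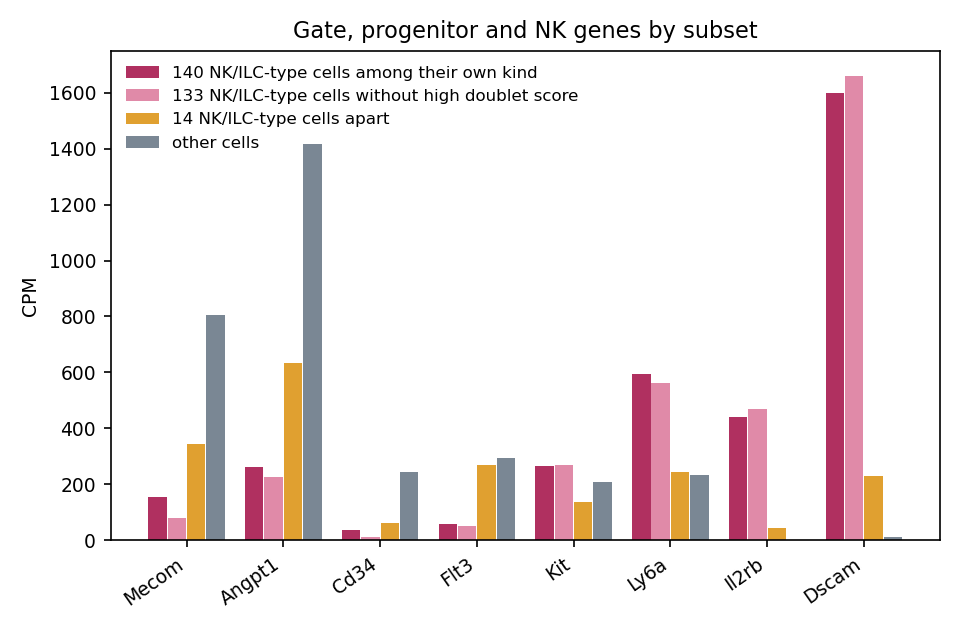
Summed levels (CPM, linear axis from 0) of progenitor genes, genes of the sorting gate and NK/ILC-type genes in 140 NK/ILC-type cells among their own kind, 133 without a high doublet score, 14 apart and the other ST-HSC cells. Mecom and Angpt1 were at their highest in the other cells, and Il2rb and Dscam in the NK/ILC-type cells, with the 14 cells in between.

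Of 9150 genes measured (mean of both levels at least 10 CPM), 648 were higher in NK/ILC-type cells (7.08%) and 701 lower (7.66%). There were 131 genes at a ratio of 10 or more and 56 at 100 or more. Over the 9150 genes the log2 ratios had a median of -0.098, beside which the medians of the gene lists below are to be read. A gene near 0 in the other cells is measured only where NK/ILC-type cells hold about 20 CPM or more, so it is higher by construction, and counts over such lists are descriptions.

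**Figure D3:**
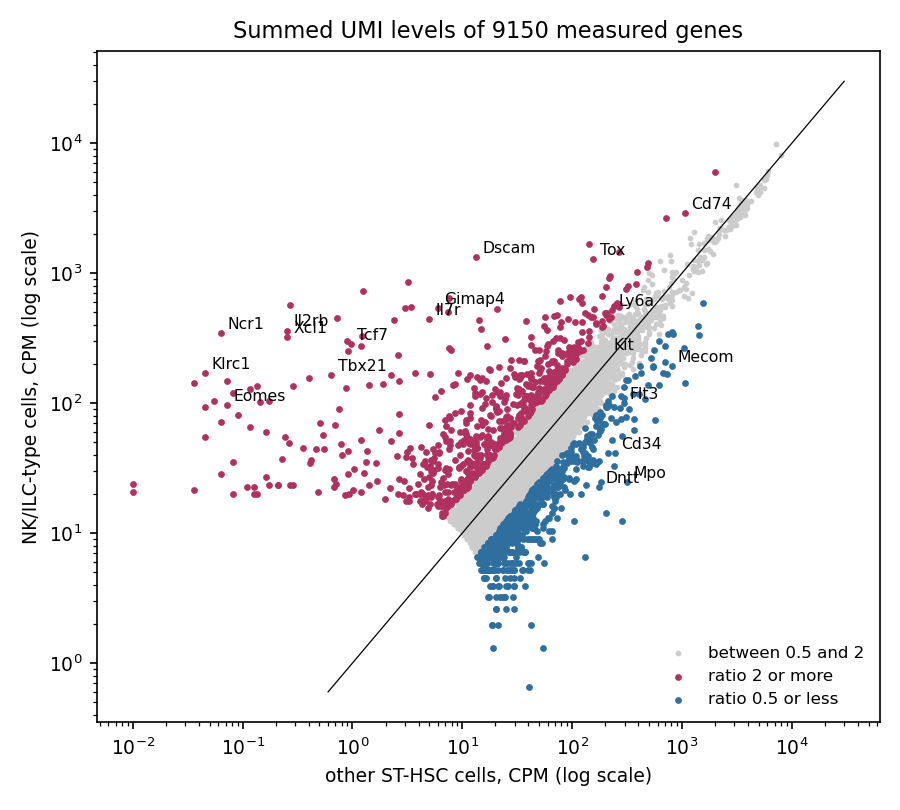
Each point is 1 of 9150 measured genes, by its level in the other ST-HSC cells (x) and in NK/ILC-type cells (y), both in CPM on log axes, with values under 0.01 drawn at 0.01 on the x axis. NK receptor, lymphoid transcription factor and cytokine receptor genes lie far above the line of equal levels, Kit lies on it, and Mpo, Dntt and Cd34 below it.

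Receptor genes of NK cells held the largest ratios. Of 35 genes of the NK receptor list in the files, 22 were measured, 21 of them higher, and the other 13 were under the limit on low levels. Ncr1, a rule gene that encodes the activating receptor NKp46, had 348 CPM (319 to 379) in NK/ILC-type cells, in 126 of them, and 0.0635 CPM in the other cells. Klrk1, a rule gene that encodes the activating receptor NKG2D, had 642 CPM in NK/ILC-type cells and 7.51 in the other cells. Klrc1, which encodes the inhibitory receptor NKG2A, had 170 CPM and 0.0454 CPM. Klrc2, its activating relative NKG2C, had 143 CPM and 0.0363 CPM, and reads may be split between these similar genes. Klrb1c, the NK1.1 gene, had 131 CPM in 75 NK/ILC-type cells and 0.880 CPM in the other cells. These genes differed in how many cells held them. Klrk1 had a UMI in 150 of the 154 cells and in 4.79% of the other cells, while Klra8 had one in 6 of the 154 and 0.0154% of the others. Thinned to equal depth, a Klrc1 UMI was in 32.0% of NK/ILC-type and 0.0467% of other cells.

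The genes of this family are clustered. Of the 30 named genes with the highest ratios, 9 lie on chromosome 6 within 1.78 Mb, from 128609227 to 130386874 (mm10), the mouse NK gene complex, which holds 22 such genes in the files. Promoters were looked up for those 30 and the rule genes, 34 genes in all, and 22 matched. The sequences below are 4 of them, shown because they belong to receptors and a chemokine that mark these cells. Each is 250 bases before to 50 bases after a RefSeq transcription start (build GRCm38.p6), in the direction of the gene, with capitals at matches to motif letters of RUNX (TGTGGT), T-box (GGTGTGA), ETS (AGGAAG) and TCF/LEF (CTTTGA) factors on either strand.
Ncr1, chr7:4337465-4337764, plus strand: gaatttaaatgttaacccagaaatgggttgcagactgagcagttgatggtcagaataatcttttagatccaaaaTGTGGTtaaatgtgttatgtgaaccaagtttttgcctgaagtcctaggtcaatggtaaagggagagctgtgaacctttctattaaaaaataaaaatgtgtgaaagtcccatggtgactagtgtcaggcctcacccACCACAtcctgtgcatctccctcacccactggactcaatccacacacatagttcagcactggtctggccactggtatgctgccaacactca
Klrk1, chr6:129623815-129624114, minus strand: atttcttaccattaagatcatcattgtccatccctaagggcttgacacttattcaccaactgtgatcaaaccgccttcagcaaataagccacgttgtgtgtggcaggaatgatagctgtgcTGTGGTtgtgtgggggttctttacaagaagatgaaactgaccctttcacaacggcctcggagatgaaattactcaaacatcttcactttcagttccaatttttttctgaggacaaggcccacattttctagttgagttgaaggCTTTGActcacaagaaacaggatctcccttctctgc
Klrc1, chr6:129678924-129679223, minus strand: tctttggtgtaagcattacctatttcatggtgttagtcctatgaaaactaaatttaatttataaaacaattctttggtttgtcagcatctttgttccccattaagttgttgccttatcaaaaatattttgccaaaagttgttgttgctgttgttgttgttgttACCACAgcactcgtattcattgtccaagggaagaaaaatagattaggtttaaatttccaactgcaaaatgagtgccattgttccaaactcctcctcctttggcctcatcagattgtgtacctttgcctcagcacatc
Xcl1, chr1:164935473-164935772, minus strand: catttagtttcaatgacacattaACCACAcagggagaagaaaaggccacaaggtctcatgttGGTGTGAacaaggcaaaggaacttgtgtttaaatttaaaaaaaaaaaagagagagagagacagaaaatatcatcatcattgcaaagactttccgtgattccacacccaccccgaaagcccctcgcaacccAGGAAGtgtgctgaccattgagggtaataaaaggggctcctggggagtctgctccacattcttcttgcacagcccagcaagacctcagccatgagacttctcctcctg
With 1 promoter per gene, the first listed (10 of the 22 genes have several), the RUNX letters stood in 10 of 22 (45.5%) and in 16.9% of all 27025 genes in the table. The T-box letters stood in 3 (13.6%) and 3.96%, the ETS letters in 9 (40.9%) and 35.2%, and the TCF/LEF letters in 5 (22.7%) and 16.2%. Over all 32851 promoters the RUNX letters stood in 16.8%. Among the 10 genes with RUNX letters are Klra1, Klrc1, Klrc2, Klre1 and Klrk1, related genes of the complex above, so these matches are not independent. The 4 promoters shown all hold RUNX letters, but they were picked and do not stand for the 22, of which 10 hold these letters. A match describes these letters only.

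Ly49 receptors, encoded by Klra genes, bind MHC class I and are carried by subsets of mouse NK cells in varied combinations. Of the 154 cells, 51 (33.1%) had a UMI of any Klra gene, against 1.06% of the other cells, and 30 had 2 or more of these genes, up to 5. Klra4 had 104 CPM in NK/ILC-type cells, in 18 of them, and 0.0544 CPM in the other cells. Klra7 had 93.5 CPM in 31 NK/ILC-type cells and 0.0454 CPM in the others. Klra8 rested on 6 cells. Klra genes are near-identical copies, so which of them was counted is uncertain, and the count of cells with any of them is the firmer value.

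Many genes of signalling below such receptors were higher. In the list of immunoreceptor and T cell receptor type signalling, 17 of 32 measured genes were higher and 2 lower, with a median log2 ratio of 1.33. Tyrobp encodes the adaptor DAP12 that passes on the signal of activating receptors, and had 612 CPM in NK/ILC-type cells and 77.1 CPM in the others. Fcer1g, an adaptor of NKp46, had 390 and 55.3 CPM, and Hcst, the DAP10 adaptor of NKG2D, 210 and 36.5 CPM. Skap1, a rule gene and adaptor of integrin activation, had 734 and 1.25 CPM. Txk, a kinase of lymphocytes, had 330 CPM in NK/ILC-type cells and 1.23 CPM in the other cells. Zap70, the kinase of the T cell receptor, was low, at 19.5 CPM in 21 cells and 0.218 CPM in the others. The kinase gene Syk was between the limits, at 147 and 115 CPM, as was the phospholipase gene Plcg2, at 250 and 215 CPM. The phospholipase gene Plcg1 and the adaptor gene Skap2 were lower, at 5.20 and 113 CPM in NK/ILC-type cells and 23.3 and 233 CPM in the other cells.

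Transcription factor genes of NK cells and ILC1s were higher in 9 of 13 measured cases and lower in 0, with a median log2 ratio of 2.27. Tbx21, which encodes T-bet, had 164 CPM (145 to 186) in 99 of the 154 cells and 0.644 CPM in the other cells. Eomes, a T-box factor that in mice is used to tell NK cells from ILC1s, had 96.8 CPM (81.8 to 114) in 72 of the 154 cells and 0.0726 CPM in the others. UMIs of both were found in 54 cells, of Tbx21 without Eomes in 45, of Eomes without Tbx21 in 18, and of neither in 37. A UMI missed in a cell does not show that the gene was off, since the median cell held 6914 UMIs. Id2, which blocks B cell fate and is needed by all ILCs, had 431 CPM and 38.3 CPM, and Ets1 439 and 14.3 CPM. Stat4, which acts below the interleukin-12 receptor, had 591 and 123 CPM. Zfp683 (Hobit, a factor of tissue-resident lymphocytes) had 1 UMI in all NK/ILC-type cells.

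Genes of early ILC and T lineage factors were also higher, 10 of 21 measured, with 3 lower and a median log2 ratio of 0.90. Tcf7, which encodes TCF-1, had 285 CPM (259 to 313) in 127 NK/ILC-type cells and 0.962 CPM in the other cells. Its relative Lef1 had 135 and 0.290 CPM. Tox, needed for ILC development, had 1283 CPM in 143 NK/ILC-type cells and 156 CPM in the others. Rora, a factor of ILC2s among others, had 457 and 56.2 CPM. Gata3 had 59.7 and 9.60 CPM, found in 58 of the 154, and Zbtb16, the PLZF gene of ILC precursors, had 98.1 CPM in 65 cells and 16.2 CPM in the others. The progenitor genes Myb and Sox4 were lower, at 92.2 and 133 CPM, against 274 and 297 CPM. Bcl11b, a T and ILC2 factor, was low in both, at 11.7 CPM in 9 NK/ILC-type cells and 0.354 CPM in the other cells.

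**Figure D4:**
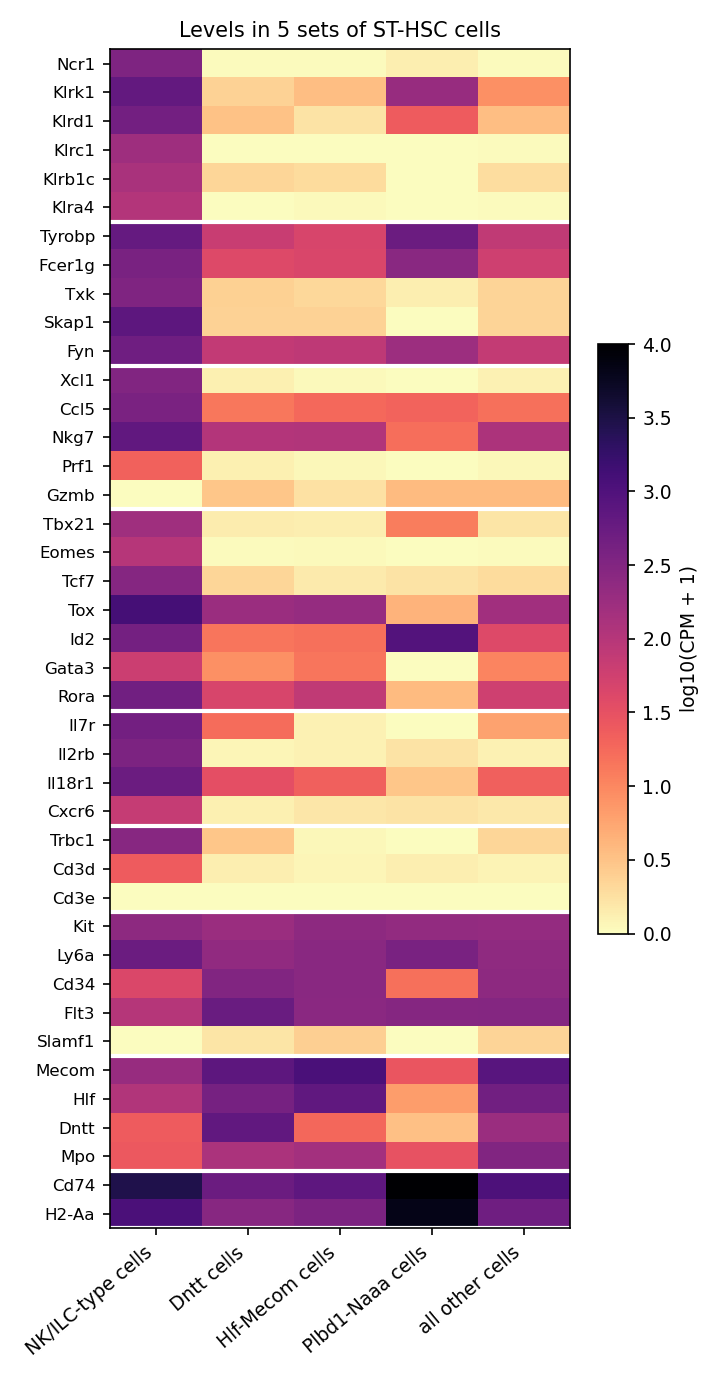
Levels, as log10(CPM + 1), of genes (rows, by role) in NK/ILC-type cells, in Dntt cells, Hlf-Mecom cells and Plbd1-Naaa cells of the same library, and in all other cells. NK receptor, transcription factor and cytokine receptor genes are darkest in the first column, with Klrk1, Tyrobp and Fcer1g also dark and Id2 darkest in Plbd1-Naaa cells (the colour scale ends at 4), and Kit is alike in all 5 columns.

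Receptors for the cytokines that sustain or activate NK cells and ILCs were present. Of 21 measured cytokine receptor genes, 8 were higher and 2 lower, with a median log2 ratio of 0.46. Il2rb, the shared chain of the interleukin-2 and interleukin-15 receptors, had 362 CPM (332 to 393) in 135 NK/ILC-type cells and 0.254 CPM in the other cells. Il18r1 and Il18rap, the chains of the interleukin-18 receptor, had 534 and 325 CPM, against 20.5 and 42.6 CPM. Il12rb2 had 118 CPM and 14.6 CPM. Il7r, a rule gene for the interleukin-7 receptor, had 442 and 4.97 CPM, while the common chain Il2rg was between the limits at 90.3 and 57.9 CPM. Among kinases and inhibitors below these receptors 5 of 13 genes were higher and 0 lower, led in level by Jak1 at 779 CPM against 205 CPM. Most genes of ILC2s and ILC3s were under the limit on low levels, and most of those measured were higher. Of 16 ILC2 genes 4 were measured, 3 higher and 1 lower, with a median log2 ratio of 1.32 and 6 genes at 0 UMIs. Of 13 ILC3 genes 4 were measured, 3 higher and 1 lower, with a median of 2.12 and 3 genes at 0 UMIs. The ILC2 list, which holds Ly6a of the sorting gate, summed to 636 CPM, against 278 CPM in the other cells. The ILC3 list summed to 846 and 179 CPM. It holds Batf3, also in the dendritic cell list, at 140 and 8.53 CPM. Il1rl1, the ST2 receptor gene of ILC2s, had 17.5 CPM in 8 NK/ILC-type cells and 6.33 CPM in the other cells. Its log2 ratio of 1.47 was 0.44 without cells of high doublet score and 0.50 in the 140 cells, both between the limits, and it was under 1 in 6 further settings.

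Effector genes split by kind. Of 19 measured, 10 were higher and 1 lower, with a median log2 ratio of 1.16. Xcl1, a chemokine of NK cells that attracts dendritic cells, had 324 CPM in 110 NK/ILC-type cells and 0.254 CPM in the others. Ccl5, another chemokine, had 374 and 14.9 CPM, with 33.0% of its UMIs in 5 cells. Nkg7, a protein of cytotoxic granules, had 653 and 121 CPM, and Ctsw, a protease of cytotoxic lymphocytes, 258 and 7.92 CPM. The killing proteins themselves were scarce. Gzmb, the main granzyme of activated NK cells, had 0 UMIs, which allows up to 1.95 CPM, against 2.72 CPM in the other cells. Gzma had 2 UMIs, and Prf1, the perforin gene, had 20.1 CPM in 26 of the 154 cells and 0.136 CPM in the others. Ifng, the main cytokine of group 1 cells, had 28.6 CPM in 23 cells and 0.0635 CPM in the others. Il5, Il13, Il22 and Il17a, cytokines of ILC2s and ILC3s, all had 0 UMIs in NK/ILC-type cells.

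Homing and adhesion genes were higher in 10 of 20 measured cases, with 1 lower and a median log2 ratio of 1.35. Cxcr6, a chemokine receptor that marks ILC1s and some ILC precursors, had 70.8 CPM in NK/ILC-type cells and 0.508 CPM in the other cells, and Cxcr3 had 61.7 and 1.75 CPM. Itga2, the CD49b gene of NK cells, had 83.8 CPM in 60 NK/ILC-type cells and 8.60 CPM in the others. Itga1, which encodes CD49a of tissue ILC1s, had 0 UMIs, against 2.30 CPM, and S1pr5, the receptor by which mature NK cells leave marrow, had 0 UMIs, against 0.0272 CPM. Klrg1, a receptor of mature NK cells, had 1 UMI in NK/ILC-type cells. Integrin genes Itgal and Itgb2, which form LFA-1, had 179 and 119 CPM, against 17.9 and 13.1 CPM. The Gimap genes, GTPases that keep lymphocytes alive, were higher in 7 of 8 cases, with Gimap4 at 539 CPM against 6.03 CPM.

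T cell genes were read as markers of another type these cells could be. Of 25 T cell genes in the files 8 were measured, 6 of them higher, and the other 17 were under the limit on low levels. Of the 8 markers of T cells, 5 stood at a ratio of 2 or more and 1 had 0 UMIs. Of the 154 cells, 80 had UMIs of 2 or more of these markers. The 8 markers summed to 569 CPM in NK/ILC-type cells and 6.69 CPM in the others. Nearly all of that sum was Trbc1 and Trbc2, the constant regions of the T cell receptor beta chain, at 277 and 251 CPM, against 1.21 and 0.907 CPM, with reads possibly split between these copies. Cd3e, an invariant chain of the T cell receptor complex, had 0 UMIs, which allows up to 1.95 CPM, against 0.0272 CPM in the other cells. Cd3d had 23.4 CPM in 24 cells, Cd3g 6.49 CPM in 7 cells and Trac, the alpha chain constant region, 3.90 CPM in 6 cells. Tcrg-C4, a constant region of the gamma chain and outside the 8 markers, had 65.6 CPM in 56 NK/ILC-type cells and 0.118 CPM in the others. Any of the 3 Cd3 genes had a UMI in 27 of the 154 cells and 2 or more UMIs in 10, and the 24 cells with Cd3d all had Trbc1 as well. Of the coreceptor genes, Cd8a had 6 UMIs and Cd4 had 4. The part of T cells in these levels was not tested. Markers of B cells summed to 1.95 CPM in NK/ILC-type cells and 2.64 CPM in the others, with Cd79a and Pax5 at 0 UMIs.

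The sort asked for Kit, Sca-1 and CD48 and against CD34 and lineage markers. Kit had 239 CPM (215 to 265) in 121 NK/ILC-type cells and 207 CPM in the other cells, a ratio of 1.155 (1.04 to 1.28). Thinned to equal depth, a Kit UMI was in 51.3% and 46.7% of cells. Ly6a, the Sca-1 gene, had 524 and 232 CPM (ratio 2.26, 2.10 to 2.42), and 103 of the 154 cells had UMIs of both Kit and Ly6a. The log2 ratio of Ly6a, 1.18, was below the limit of 1 with cells thinned to 5000 UMIs (0.95) and as a mean over cells (0.99). Without cells of high doublet score Kit had 268 CPM and Ly6a 562 CPM. In those same 133 cells Mecom had 80.2 CPM, against 806 CPM in the other cells, and Cd34 had 13.1 CPM, against 245 CPM. Scrublet is taken as failed, so its score may miss doublets. The part of doublets or of RNA from other cells in these levels was not tested. Cd48 was alike, at 76.6 and 74.7 CPM. Cd34 had 41.6 CPM in 21 NK/ILC-type cells and 245 CPM in the others, in the direction of the gate, and Flt3, which the ST-HSC gate does not name, had a ratio of 0.340 (0.289 to 0.399) and a UMI in 31 of the 154 cells. With 3 of 8 rule genes its log2 ratio was -0.79, between the limits. Slamf1, the CD150 gene that the gate requires, had 0 UMIs, which allows up to 1.95 CPM, and had 1.28 CPM in the other cells, so a difference was not detectable at this depth. It had 26.6 CPM in the LT-HSC library, so its RNA was low in the whole ST-HSC library, and whether the cells carried the protein was not tested.

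Among 11 genes of commonly depleted lineage markers (the labels do not name the antibodies used), 5 were measured and 3 were higher, Klrb1c, Itga2 and Ptprc. Ptprc, which encodes CD45 and its B220 form, had 1451 and 269 CPM, and counts of 3' ends do not tell these forms apart. Cd3e and Ly6g had 0 UMIs, and Itgam, the CD11b gene, was between the limits at 8.44 and 16.7 CPM. Itgam passed the lower limit in several other settings. Its log2 ratio was -1.36 without cells of high doublet score, -1.39 with 5 of 8 rule genes and -2.36 in the 140 cells among their own kind. Ly6c2, also between the limits, had a log2 ratio of 1.35 with thinned cells, 1.42 as a mean over cells and 1.01 in the 140 cells.

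Genes of the surrounding stem and progenitor cells were lower. Of 14 measured stem cell genes 12 were lower and 0 higher, with a median log2 ratio of -2.02. Mecom had 192 CPM in 29 NK/ILC-type cells and 806 CPM in the other cells, and 67.9% of its UMIs came from 5 cells. Hlf, another stem cell factor, had 108 and 465 CPM. Dntt, the terminal transferase of lymphoid progenitors, had 22.7 and 177 CPM. Of 12 measured lymphoid-primed progenitor genes 6 were lower and 1, Cd52, was higher. Of 9 measured neutrophil and monocyte progenitor genes 7 were lower and 0 higher, with Mpo at 24.7 CPM against 316 CPM and Elane at 12.3 CPM against 286 CPM. Ifitm1, Ifitm2 and Ifitm3, similar genes that block virus entry and are high in stem cells, had 168, 139 and 171 CPM, against 734, 495 and 679 CPM. Of 22 measured interferon-induced genes 5 were lower, these 3 among them, and 0 higher. Igkc and Iglc3, immunoglobulin light chain genes had 6.49 and 0.649 CPM in NK/ILC-type cells and 132 and 40.4 CPM in the others. With cells of high doublet score left out of both sets their log2 ratios were above 0, at 0.71 (Igkc) and 0.82 (Iglc3).

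MHC genes stood somewhat above the other cells. In the class I and peptide transport list 1 of 17 genes was higher and 0 lower, with a median log2 ratio of 0.69; H2-K1 had 2062 and 1282 CPM. Of the class II genes, Cd74, the invariant chain, had 2900 and 1056 CPM, and H2-Aa 1107 and 479 CPM. The log2 ratio of H2-Aa was under the limit of 1 with 5 of 8 rule genes (0.89), with thinned cells (0.86) and without Klrk1 (0.87), Klrd1 (0.86) or Cd226 (0.88) in the rule. Cd74 had a UMI in 149 of the 154 cells, and 25.01% of its UMIs came from 5 cells. In the 140 cells among their own kind it had 2581 CPM. The marker list of conventional dendritic cells, whose genes these are, summed to 4987 CPM in NK/ILC-type cells and 2128 CPM in the others, with 3 of 7 markers higher, 1 lower and 0 at 0 UMIs. That sum was 4338 CPM in the 140 cells and 7567 CPM in the 14 apart. The dendritic markers Plbd1 and Naaa had 28.6 and 22.7 CPM, against 41.6 and 32.6 CPM in the other cells. The part of dendritic cell RNA in the class II levels was not tested.

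There were 3 sets of other cells in the same library for comparison: 1358 Dntt cells, 3747 Hlf-Mecom cells and 215 Plbd1-Naaa cells, each chosen by UMIs of the genes that name it. Il2rb had 362 CPM in NK/ILC-type cells, and 0.182, 0.247 and 0.670 CPM in Dntt, Hlf-Mecom and Plbd1-Naaa cells. Il7r had 442 CPM in NK/ILC-type cells and was next highest in Dntt cells, at 15.9 CPM. The Plbd1-Naaa cells shared some genes with the NK/ILC-type cells. Klrk1 had 193 CPM there, Tyrobp 536 CPM and Id2 923 CPM, against 642, 612 and 431 CPM in NK/ILC-type cells, while Cd74 had 17223 CPM there and 2900 CPM in NK/ILC-type cells. Kit had 181, 242 and 212 CPM in Dntt, Hlf-Mecom and Plbd1-Naaa cells, beside 239 CPM in NK/ILC-type cells.

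Cell cycle genes were near the level of the other cells. Of 34 G2/M genes none passed either limit, with 0 higher and 0 lower, and of 34 S phase genes 3 were lower and 0 higher. Mki67, a marker of dividing cells, had 252 CPM on both sides. It was unevenly spread, with UMIs in 35 of the 154 cells and 37.4% of them in 5 cells. Thinned to 3000 UMIs, 10 of 150 NK/ILC-type cells (6.67%, 3.24 to 11.9%) had at least 1.5% of their UMIs in S and G2/M genes, against 3.93% (3.46 to 4.43%) of the other cells. The direction turned with the limit: at 1% or more the shares were 14% of NK/ILC-type and 19.5% of other cells, and at 2% or more 4% and 0.421%. Between 1 and 2% lay 15 of the 150 and 1222 of the 6419 cells. The median share of UMIs in S phase genes was 0.0667% in NK/ILC-type cells and 0.167% in the other cells. Ribosome biogenesis genes and respiratory chain genes were mostly between the limits, at median log2 ratios of -0.46 and -0.21. Immediate early genes, switched on fast by stimulation or by handling of cells, were higher in 7 of 19 cases and lower in 1, with Fosb at 316 CPM against 71.6 CPM.

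The NK/ILC-type cells differed among themselves. This was read within the 140 that lay among their own kind, since the other 14 held more RNA of several other types. Marker sums in the 14 were 604 CPM for stem cells, 1459 CPM for erythroid cells and 7567 CPM for conventional dendritic cells. In the 140 these sums were 240, 12.2 and 4338 CPM, so the 140 also held such RNA. Markers of T cells and of basophils and mast cells were lower in the 14, at 103 and 9.69 CPM against 686 and 13.8 CPM. Eomes was taken as the dividing gene after seeing the data, and 68 cells had a UMI of it and 72 had none, at a median of 7336 and 5999 UMIs. Cells with Eomes had more Ly49 and related receptor RNA. Klra4 had 225 CPM in cells with Eomes and 24.04 CPM in cells without, from 16 and 2 cells. Klra7 had 176 and 46.4 CPM, and Klre1, a receptor of the same gene complex, 272 and 27.5 CPM. Klra1 had 83.4 CPM, in 13 cells, and 0 UMIs in the 72 without. Itga2 had 148 and 48.1 CPM, and Ccl5 648 and 249 CPM. Cells without Eomes had more of other genes. Cxcr6 had 29.3 CPM in cells with Eomes and 151 CPM in those without, a ratio of 0.194 (0.112 to 0.321), and was found in 14 and 41 cells. S100a4, a calcium-binding protein, had 72.6 and 354 CPM, and H2-DMb2, of class II peptide loading, 15.4 and 80.7 CPM. Il7r had 367 and 692 CPM, Rora 414 and 675 CPM, and Ly6a 397 and 814 CPM. Tbx21 and Kit were alike in both, at 190 and 273 CPM in cells with Eomes, and 197 and 256 CPM in those without. Mecom, from the surrounding cells, had 38.6 and 282 CPM, so RNA of stem cells also differed between these cells, and its part in the split was not tested.

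**Figure D5:**
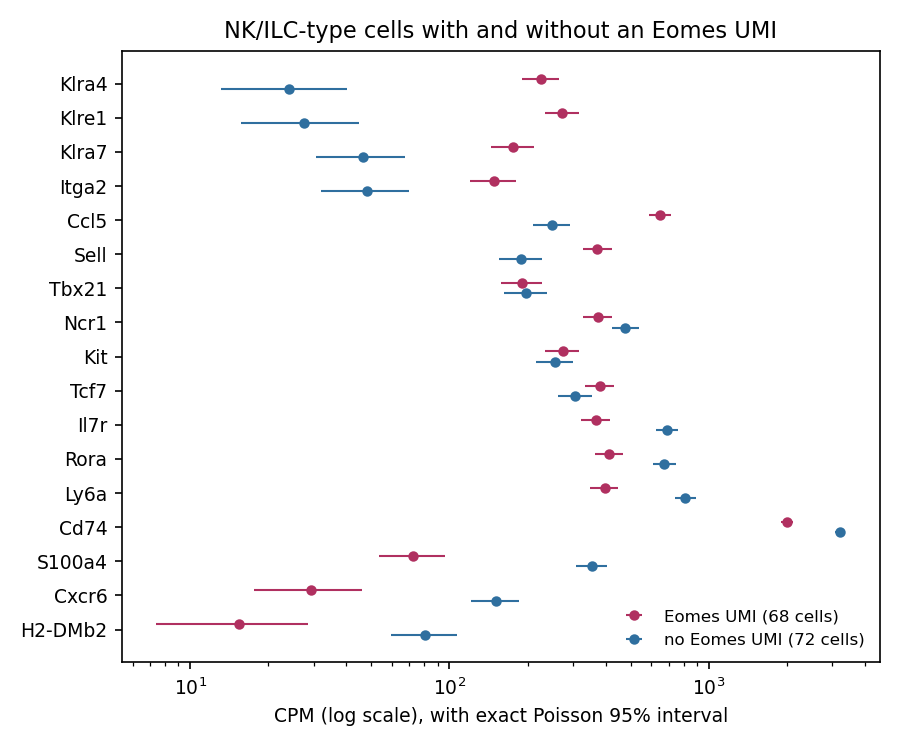
Levels (CPM on a log axis, with exact Poisson 95% intervals for counting error) of 17 genes, chosen after their values were seen, in 68 NK/ILC-type cells with and 72 without an Eomes UMI, among the 140 that lay among their own kind. Klra4, Klre1, Klra7 and Itga2 are higher with Eomes, Cxcr6, S100a4 and H2-DMb2 higher without it, and Tbx21 and Kit alike.

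Divisions by other genes, read in the same 140 cells, set Ly49, T cell receptor and chemokine genes apart as well. Over all 154 cells, 37 of the 51 with a Klra UMI had Eomes. The 118 of the 140 cells with Il7r had less Klra4 than the 22 without, 87.5 CPM against 334 CPM, from 12 and 6 cells. They also had less of the histone gene Hist1h1b, at 313 and 1111 CPM, which came from 19 and 6 cells. The 25 cells with a Cd3 UMI had more Tox than the 115 without, 2554 and 1301 CPM, and more Trbc1, at 621 and 283 CPM. They had more Klra4, at 449 and 64.7 CPM, from 7 and 11 cells. Klra4 was found in 18 cells in all, so its contrasts rest on the same few cells. The 54 cells with Gata3 had less Ccl5 than the 86 without, 280 and 626 CPM, and less Xcl1, at 265 and 513 CPM. The 19 cells with Flt3 held a median of 15285 UMIs, against 6359 in the 121 without. The genes Klra4, Hist1h1b, Tox, Trbc1, Ccl5 and Xcl1 were picked here after their values were seen. Cells with a UMI of Eomes, Cd3, Gata3 or Flt3 held more UMIs at the median than those without.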

How the data were processed

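Each library came as 1 deposited matrix of whole-number UMI counts, which the authors had not normalized. Counts were made with Cell Ranger 7.2 on mm10 per the submitters' processing notes, while the file headers name Cell Ranger 7.1.0. The labels name the 10x Genomics 3' v2 kit. Of 32285 gene IDs, 32235 were found in GENCODE M21 (the same build), which gave the 1-based coordinates. Of 7586 barcodes in the ST-HSC library 6648 were kept, and of 2938 in the LT-HSC library 2722. The libraries shared 8 barcodes, 0 of them among the 154 cells.

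The member cells and the gene lists were chosen with earlier results of these data known. Genes named are the rule genes and Dscam; genes of the sorting gate and of lineage depletion; the 30 highest and 15 lowest ratios (ranked on whichever interval bound lay closer to 1, for genes at 20 CPM or more in either set), passing over unnamed gene models (2 among the higher, 0 among the lower); in each list up to 5 genes by ratio and 3 by level; and fixed genes. Other genes named were chosen after their values were seen. A set at 0 UMIs is given its floor of 3 counts. Exact intervals were at 95% (scipy 1.17.1). Components and neighbours were computed in scanpy 1.11.5 on counts per 10000 after a log transform. Scrublet was run on the counts, and no cell was removed for its doublet score. Dntt cells had 3 or more Dntt UMIs, Hlf-Mecom cells 2 or more UMIs of each gene and Plbd1-Naaa cells 1 or more of each. As alternatives, library sizes were rescaled by TMM (edgeR 4.0.16) or by the median gene ratio. The code for the ratio intervals and neighbour shares was run on simulated data. These were Poisson counts without spread between cells and 2 well-separated groups, so they check the calculation only. Other alternatives changed the rule (3 or 5 of 8 genes, or 1 gene left out), the cell filters (500 genes, 5% mitochondrial), the filter on low values, the doublet-score cells, the depth (cells thinned to 5000 UMIs), the cells set against and the mean (over cells). The neighbour limit of 8 and the division by Eomes were chosen after seeing the data. Python 3.11.15, scikit-learn 1.9.0 and R 4.3.3 were used. Some genes are not reported here.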

Additional observations from a re-analysis of the deposited data

Results flagged for a closer look

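Barcodes left out by the filters held the same kind of RNA. Of 938 such barcodes in the ST-HSC library, 8 had 4 or more of the 8 rule genes, a signal in data that no comparison used. Their mitochondrial shares were 10.7 to 20.3%, with a median of 13.98%, and 1 also had fewer than 1000 genes. They held a median of 3108 UMIs. Summed over the 8 barcodes, Dscam had 2055 CPM, Il2rb 283 CPM, Tcf7 283 CPM, Kit 213 CPM and Ly6a 142 CPM.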

How the results depend on the processing

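The share of NK/ILC-type cells was 2.95% with 3 of 8 rule genes and 1.67% with each cell thinned to 5000 UMIs, against 2.32%. Genes higher numbered 2228 of 14843 with no filter on low values, against 648 of 9150. Genes lower numbered 1162 of 9106 with thinned cells and 416 of 7157 at a mean of 20 CPM or more. With no filter they numbered 1809 of 14843, against 701 of 9150. Csf2rb and Ifi27l2a, lower by the rule, stood at log2 ratios of 0.19 and 0.52 with 3 of 8 genes, and Igkc and Iglc3 at 0.71 and 0.82 without cells of high doublet score. The cause was not tested. Of 146 named genes past a limit, 137 to 146 stayed past it under the alternatives, with 137 at 3 of 8 rule genes. Without the 14 cells apart 746 of 9105 genes were higher and 953 lower, an alternative chosen after seeing the data. No paired analysis was possible because each group is 1 library and the labels carry no replicate numbers. A gene at 0 UMIs in the 154 cells may have up to 1.95 CPM, so silence of scarce genes such as Slamf1 cannot be read at this depth.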
